A study of Homo sapiens with 12 samples.

Results

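The proteins of the cytosolic ribosome were followed at the mRNA level in 2 multiple myeloma cell lines, KMS-11 and KMS-34, and in their carfilzomib-resistant derivatives. Of 19775 genes measured by probe sets that name 1 gene, 50 encode such a protein by a rule on gene symbols (RPL or RPS with a number and at most an A or X, plus the stalk proteins RPLP1 and RPLP2), 31 of the large subunit and 19 of the small subunit, and they are covered by 108 of 54613 probe sets. RPL8 and RPS27 were left out by the rule, and RPLP0 and RPSA were not analysed here. A further 15 ribosomal protein symbols, among them RPL5, RPL10 and RPS20, occur only in probe sets that name several genes and were not analysed here. Large and small subunit genes were set side by side in 4 groups with 3 replicates each, 12 arrays in all. The resistant cultures, KMS-11/Cfz and KMS-34/Cfz, had been selected to grow in 12 nM carfilzomib, an irreversible proteasome inhibitor, and spent 1 week without it before harvest. The parental KMS-11 and KMS-34 cells had no such selection. The labels give 4% fetal bovine serum for all 4 groups, whereas the methods of the paper give another percentage. As far as the sources say, each line gave 1 resistant culture, and whether replicates were grown separately is not stated, so p-values here reflect the spread among these arrays, which may be technical.

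Every ribosome carries a single copy of most of these proteins, built around ribosomal RNA into a small subunit that reads the mRNA and a large subunit that joins amino acids. Cells therefore hold the amounts of the proteins in balance, largely by controlling translation of their mRNAs, which start with a C followed by a run of pyrimidines (the 5′ terminal oligopyrimidine tract) and respond together to mTOR signalling. Ribosomal proteins made in excess are degraded by the proteasome, the target of carfilzomib, and plasma cells depend on a high rate of protein synthesis.

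The start of the transcript is shown for genes whose values carry the results below, since most members have the tract there and the choice by symbol did not use it. The windows run from 10 bases before to 20 bases after the position where RefSeq places the start, in the build GRCh38.p14, and capitals mark the unbroken C or T run that begins with a C at the start itself. RPL34 (chr4:108620566-108620595, plus strand), RPS24 (chr10:78033853-78033882, plus strand) and RPL35A (chr3:197950180-197950209, plus strand) are the genes that fell in KMS-34/Cfz cells. RPS3 (chr11:75399508-75399537, plus strand), RPS21 (chr20:62387093-62387122, plus strand), RPS7 (chr2:3575250-3575279, plus strand) and RPL6 (chr12:112409266-112409295, minus strand) differed between the lines.
RPL34: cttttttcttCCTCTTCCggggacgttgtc
RPS24: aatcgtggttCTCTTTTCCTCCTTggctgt
RPL35A: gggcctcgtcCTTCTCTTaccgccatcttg
RPS3: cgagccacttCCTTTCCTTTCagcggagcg
RPS21: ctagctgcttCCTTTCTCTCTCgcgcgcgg
RPS7: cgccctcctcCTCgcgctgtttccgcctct
RPL6: gacggcgcgtgcactgtgttcctggtcctg
Taking C at the start followed by at least 4 bases that are each C or T, on the transcribed strand, 33 of the 45 members with a sequence (73.3%) matched at 1 or more of their annotated starts, against 5.14% of 27305 genes with a sequence and 8.7% of 69 mitochondrial ribosomal protein genes. The share was 74.1% of 27 large subunit genes and 72.2% of 18 small subunit genes. Tracts of 14, 8 and 8 bases stand at the starts of RPS24, RPL34 and RPL35A, and tracts of 11 and 12 at those of RPS3 and RPS21. A run of 3 stands at the start of RPS7, and none at the annotated start of RPL6. RPS15A, RPL23A, RPL30, RPL7 and RPL37 had no entry.

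RNA was hybridised to Affymetrix human genome arrays, and the deposited values are normalized log2 values that are centred for each probe set. All 108 member probe sets have between 3 and 9 of their 12 values below 0, so a value states how far an array lies from the other arrays and not how much mRNA the cells hold, and neither the abundance of ribosomal protein mRNAs nor the presence of plasma cell markers could be checked as a level. Array medians lay between -0.017 and 0.013. Arrays of 1 group correlated with r of 0.759 to 0.949 across probe sets. KMS-34/Cfz replicate 1 had the widest residuals, with an SD of 0.163 over all genes against 0.067 to 0.121 on the other 11 arrays. On this array the members deviated from their group means by a median of -0.037, the largest such deviation of the 12. Because the arrays carry bulk RNA, a smaller share of a cell type and less RNA per cell cannot be told apart.

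None of the 50 ribosomal protein genes passed the threshold, an adjusted p under 0.05, in KMS-11/Cfz against KMS-11 cells, where 3.57% of all genes did (1.63% rose and 1.94% fell). By limma with Benjamini-Hochberg adjustment over all genes 0 members rose and 0 fell, and 0 had an unadjusted p under 0.05. The median log2 difference was 0.002 for large and -0.009 for small subunit genes, beside 0.002 for all genes, and the median absolute difference was 0.025 for the members and 0.07 for all genes. The 95% confidence interval of the difference lay within 1.25-fold in both directions for 48 of 50 members (96%) and for 71.1% of all genes. The exceptions were RPS29 and RPL27A. Here and below, all genes include those of any signal level, since centred values allow no filter on it. Members and all genes may therefore differ in noise, which was not tested. The 3 arrays of KMS-11/Cfz lay entirely above those of KMS-11 for 4 members and entirely below them for 8, together 24%, where 26.8% of all genes had groups that did not overlap (13.1% higher and 13.7% lower).

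At the ends of this narrow range stood RPL31, a protein at the rim of the tunnel through which the new chain leaves, and RPS29, a zinc-binding protein of the small subunit's head. RPS29 had values of -0.19, -0.31 and -0.27 in KMS-11/Cfz cells, against -0.028, -0.17 and -0.089 in KMS-11 cells. All KMS-11/Cfz arrays were lower than all KMS-11 arrays, yet the log2 difference of -0.16 (SE 0.086) had a limma adjusted p of 0.48. RPL31 stood at the other end with a log2 difference of 0.11 (SE 0.071) and a limma adjusted p of 0.635. RPS28 (-0.10), RPS24 (-0.094), RPL27A (0.092) and RPS23 (0.090) came next by size of the log2 difference, and none of them passed.

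**Figure D1:**
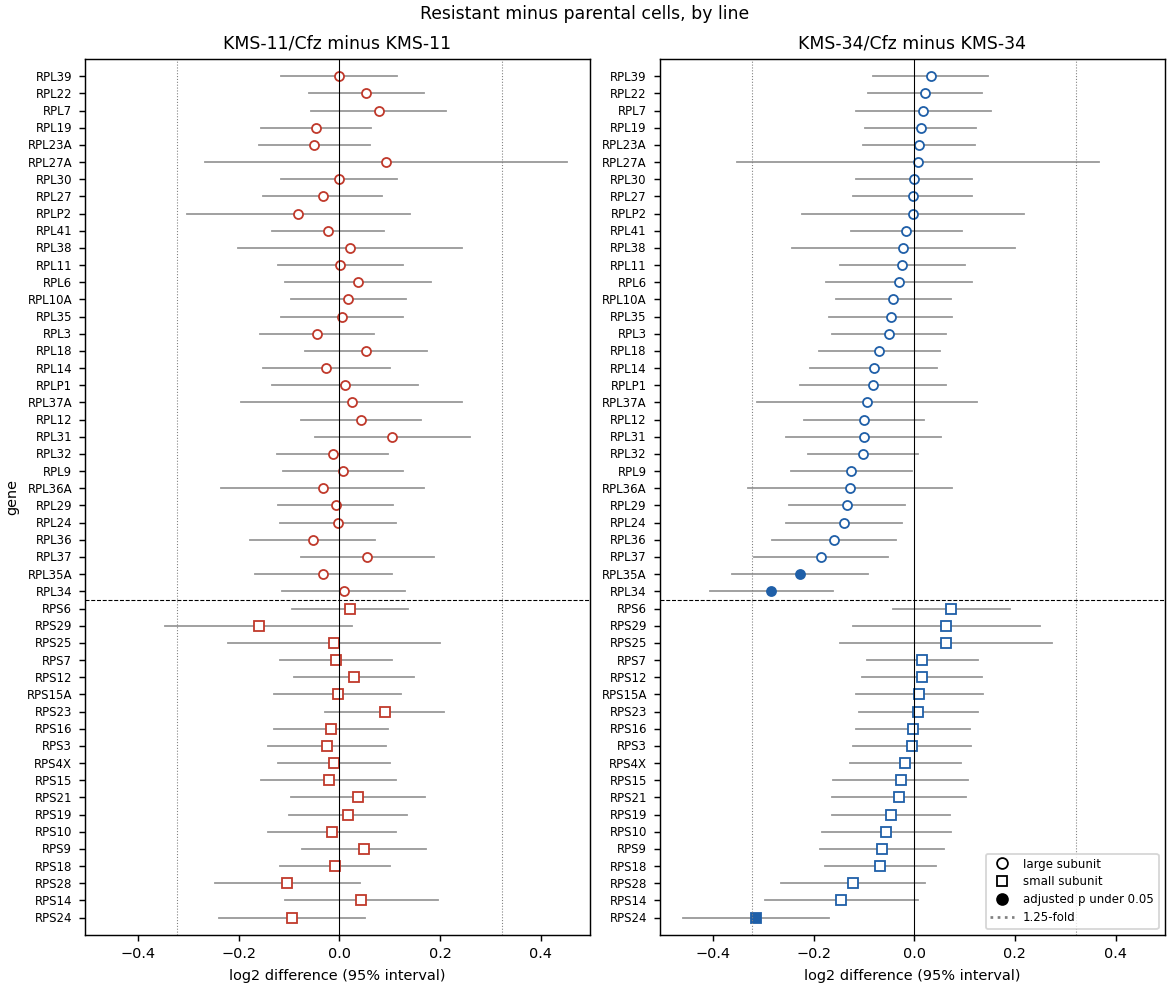
Log2 differences of the 50 genes between resistant and parental cells (horizontal axis, log2), with KMS-11/Cfz minus KMS-11 on the left and KMS-34/Cfz minus KMS-34 on the right. Circles are large and squares small subunit genes, bars are 95% intervals of the limma fit, filled symbols have an adjusted p under 0.05 and dotted lines mark 1.25-fold. No symbol is filled on the left and 3 are filled on the right (RPL34, RPL35A and RPS24), all below 0.

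In KMS-34/Cfz cells 3 ribosomal protein genes were lower than in KMS-34 cells and none was higher. Of the 50 members 0 rose and 3 fell (6%; 8 had an unadjusted p under 0.05), against 10.1% of all genes called in either direction (5.4% rose and 4.69% fell), so that the members' share of calls was below that of all genes and their share of falls close to it. These were RPS24, needed to process the precursor of 18S ribosomal RNA, RPL34, a large subunit protein, and RPL35A, needed to process precursors of the large subunit RNAs. RPS24 and RPL35A are also among the genes mutated in Diamond-Blackfan anaemia. The median log2 difference was -0.05 for the 31 large subunit genes and -0.018 for the 19 small subunit genes, beside -0.01 for all genes. The small subunit median turned to 0.008 without KMS-34/Cfz replicate 1 and was -0.044 without KMS-34 replicate 1 and -0.004 without KMS-34 replicate 2, and the large subunit median was -0.083 without KMS-34/Cfz replicate 3, -0.079 without KMS-34 replicate 1 and -0.02 with array weights. Of the 50 members 36 lay below 0, as did 10604 of all 19775 genes. The interval stayed within 1.25-fold for 45 members (90%; 63.4% of all genes). KMS-34/Cfz arrays lay entirely below KMS-34 arrays for 14 members and entirely above them for 0, together 28%, where 20.7% of all genes had groups that did not overlap, 10.5% lower and 10.2% higher. Of the 14, 11 were large and 3 small subunit genes.

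RPL34 is measured by 1 probe set. It had values of -0.54, -0.51 and -0.41 in KMS-34/Cfz cells, against -0.19, -0.19 and -0.23 in KMS-34 cells. In the other line the values were 0.10, 0.11 and 0.12 in KMS-11/Cfz cells, against 0.14, 0.070 and 0.098 in KMS-11 cells. The KMS-34/Cfz arrays were thus the lowest of all 12 without overlap, whereas the groups of the KMS-11 line overlapped. In KMS-34/Cfz the log2 difference was -0.28 (SE 0.057, limma adjusted p = 0.00581), a level of 0.821 times that of KMS-34, and in KMS-11/Cfz it was 0.0083 (SE 0.057, limma adjusted p = 0.985). RPL34 was also the single member whose response differed between the lines (KMS-34 contrast minus KMS-11 contrast, log2 -0.29, SE 0.080, limma adjusted p = 0.0472), where 6.44% of all genes were called (2.74% with a negative difference). This call was lost with any 1 of 10 arrays left out, at adjusted p of 0.0676 to 0.119; it held without KMS-34/Cfz replicate 1 and without KMS-34/Cfz replicate 3 and was lost without each of the others. The fall in KMS-34/Cfz itself passed with every single array left out, but not when the 2 groups of that line were fitted alone (limma adjusted p = 0.0944).

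RPS24 had values of 0.019, 0.099 and 0.044 in KMS-34/Cfz cells, against 0.39, 0.48 and 0.24 in KMS-34 cells. In the KMS-11 line it had -0.23, -0.23 and -0.19 in KMS-11/Cfz cells, against -0.066, -0.17 and -0.13 in KMS-11 cells. Resistant arrays were below parental arrays without overlap in both lines. The log2 difference was -0.32 (SE 0.067, limma adjusted p = 0.00855) in KMS-34/Cfz and -0.094 (SE 0.067, limma adjusted p = 0.666) in KMS-11/Cfz, and the difference between these was not called (limma adjusted p = 0.224). Averaged over both lines RPS24 was the only member past the threshold, with a log2 difference of -0.20 (SE 0.048, limma adjusted p = 0.018) where 7.85% of all genes were called (3.86% fell). That averaged call was lost without KMS-11/Cfz replicate 1 (limma adjusted p = 0.0512) or without KMS-11 replicate 1 (0.0537). The fall in KMS-34/Cfz survived each single omission but not the joint removal of the 3 arrays on which members had the widest residuals, replicate 1 of KMS-34/Cfz and of KMS-34 and replicate 3 of KMS-11 (limma adjusted p = 0.0527), or a fit of that line alone (0.0909).

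RPL35A was the weakest of the 3 calls. It had values of -0.12, -0.12 and -0.17 in KMS-34/Cfz cells, against 0.030, 0.22 and 0.023 in KMS-34 cells, and KMS-34 replicate 2 stood above its group. The groups did not overlap, and the log2 difference was -0.23 (SE 0.063, limma adjusted p = 0.0356). Without KMS-34 replicate 2 it shrank to -0.16 with a limma adjusted p of 0.117. The call was also lost without KMS-34/Cfz replicate 2 (0.0845), KMS-34/Cfz replicate 3 (0.0913), KMS-11/Cfz replicates 1, 2 or 3 (0.0573, 0.0546 and 0.058) and KMS-11 replicates 1, 2 or 3 (0.0546, 0.0545 and 0.0514), so omission of 9 of 12 arrays ended it.

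**Figure D2:**
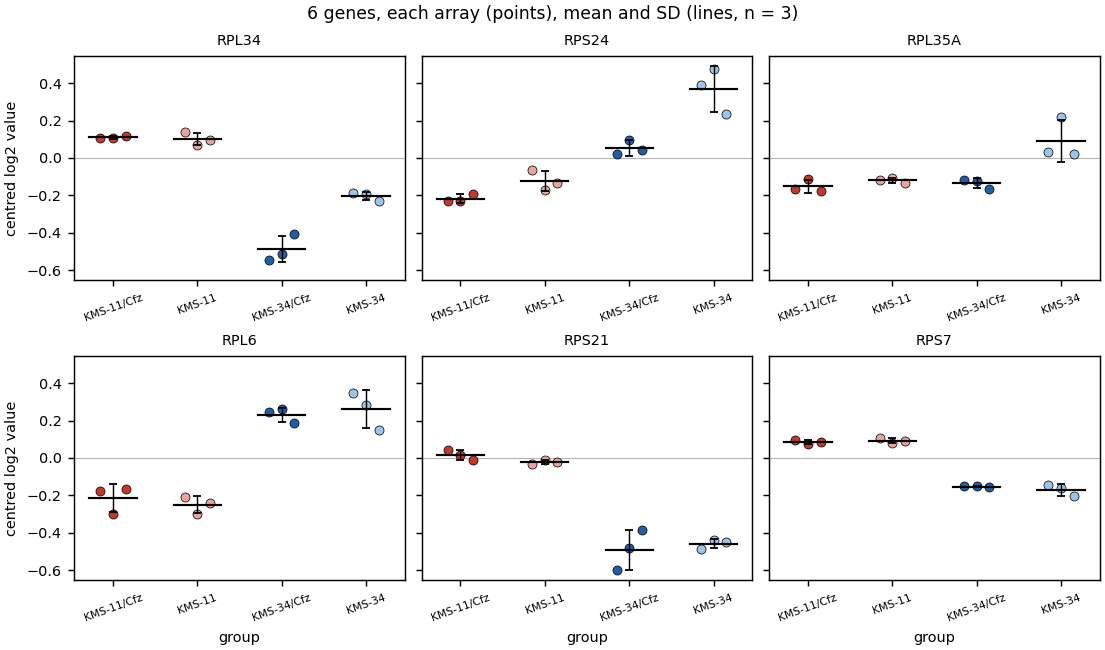
Centred log2 values (vertical axis) of 6 genes in each group (horizontal axis), with each array as a point and the mean and SD of 3 arrays as lines. RPL34 and RPS24 are lower in KMS-34/Cfz than in KMS-34 cells without overlap, RPL35A likewise with KMS-34 replicate 2 standing high, and RPL6, RPS21 and RPS7 separate the lines and not resistant from parental cells.

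Below the threshold, 4 of the next 5 members by size in KMS-34/Cfz encode large subunit proteins, as do 31 of all 50 members. RPL37 had a log2 difference of -0.19 (limma adjusted p = 0.0782), RPL36 one of -0.16 (0.106), RPS14, of the small subunit, one of -0.15 (0.259), RPL24, whose protein bridges the subunits, one of -0.14 (0.132) and RPL29 one of -0.13 (0.148). At the upper end RPS6, the protein phosphorylated by S6 kinases downstream of mTOR, had a log2 difference of 0.073 and a limma adjusted p of 0.51. By array, the median of large minus the median of small subunit genes was -0.060, 0.0032 and -0.067 in KMS-34/Cfz cells, against -0.0090, 0.026 and -0.034 in KMS-34 cells. These ranges overlapped, as did those of the KMS-11 line, with 0.015, 0.0034 and 0.0020 in KMS-11/Cfz cells, against 0.050, 0.012 and 0.012 in KMS-11 cells. Across the 50 members the responses of the lines correlated with r of 0.076 (all genes 0.043), as a description across genes that share arrays and are not independent.

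Between the lines more members passed the threshold, in both directions and in both subunits. KMS-34 against KMS-11 cells gave 15, of which 8 were higher and 7 lower (30%, against 42.1% of all genes, 21.6% higher and 20.5% lower). KMS-34/Cfz against KMS-11/Cfz cells gave 17, of which 6 were higher and 11 lower (34%, against 43.3% of all genes, 22.5% higher and 20.8% lower). The group means of this comparison came from other arrays than those of the parental comparison. The standard errors in each came from the same fit of all 12 arrays, so calls made in both are not independent. Of the large subunit genes 25.8% and of the small subunit genes 36.8% were called between parental lines, and 25.8% and 47.4% between resistant lines. Groups did not overlap for 52% of members between parental lines (50.1% of all genes) and for 56% between resistant lines (50.8%). The median absolute log2 difference of members was 0.082 between parental lines, against 0.163 for all genes.

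Line differences of the 50 genes in resistant and in parental cells correlated with r = 0.878 and rho = 0.828 (r = 0.936 for all genes), as a description, and 41 had the same sign. In both comparisons 11 genes were called, each in the same direction (RPL6, RPS3, RPS15, RPS16 and RPS24 higher in the KMS-34 line and RPL7, RPL9, RPL34, RPS7, RPS15A and RPS21 lower), 4 were called between parental lines only and 6 between resistant lines only. The shares of all genes called in both comparisons, or with the same sign in both, were not counted. These counts are therefore not read as particular to the members.

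**Figure D3:**
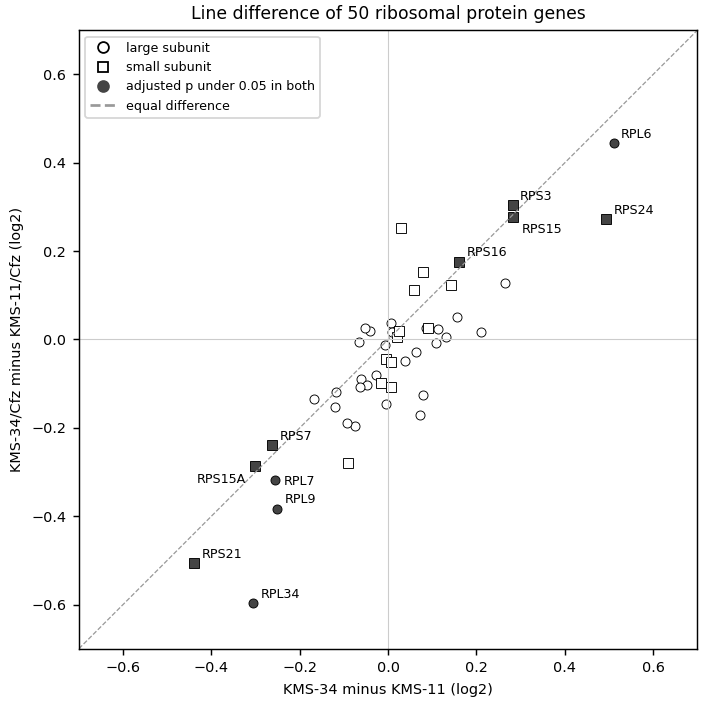
Line difference of each of the 50 genes between parental cells (horizontal axis, KMS-34 minus KMS-11, log2) and between resistant cells (vertical axis, KMS-34/Cfz minus KMS-11/Cfz, log2). Filled symbols passed the threshold in both, the dashed line marks equal differences, and 41 of 50 genes have the same sign on both axes.

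RPL6, measured by 1 probe set, was the gene most raised in the KMS-34 line. Among parental cells it had values of 0.35, 0.28 and 0.15 in KMS-34 and of -0.21, -0.30 and -0.24 in KMS-11, a log2 difference of 0.51 (SE 0.067, limma adjusted p = 2.1e-05). Among resistant cells it had 0.24, 0.26 and 0.19 in KMS-34/Cfz and -0.17, -0.30 and -0.17 in KMS-11/Cfz, a log2 difference of 0.44 (SE 0.067, limma adjusted p = 7.17e-05). The lines did not overlap in either comparison. RPS3, which lies at the entry of the mRNA channel, followed the same pattern, with 0.015, 0.069 and 0.020 in KMS-34 and -0.24, -0.23 and -0.27 in KMS-11. Its log2 difference was 0.28 (SE 0.054, limma adjusted p = 0.000639) between parental lines and 0.30 (SE 0.054, limma adjusted p = 0.000335) between resistant lines. RPS15, needed for export of the young small subunit from the nucleus, was higher by 0.28 (log2) in both comparisons, and its 2 probe sets gave 0.22 and 0.35 between parental lines, both called, and 0.16 and 0.39 between resistant lines, of which the RefSeq probe set with the smaller value was not called. RPL24 was higher by 0.26 (SE 0.053, limma adjusted p = 0.000928) between parental lines, with probe sets at 0.26 and 0.27, and was not called between resistant lines.

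On the lower side, RPS7, which takes part in processing of ribosomal RNA and binds MDM2, was among the most evenly measured genes. It had -0.15, -0.16 and -0.20 in KMS-34 cells and 0.11, 0.079 and 0.092 in KMS-11 cells, and among resistant cells -0.15, -0.15 and -0.16 in KMS-34/Cfz and 0.093, 0.077 and 0.084 in KMS-11/Cfz. The lines did not overlap. Its log2 differences were -0.26 (SE 0.051, limma adjusted p = 0.000745) between parental and -0.24 (SE 0.051, limma adjusted p = 0.00149) between resistant lines, and both of its probe sets were called in each. RPL9 had a log2 difference of -0.25 (SE 0.056, limma adjusted p = 0.00191) between parental and -0.38 (SE 0.056, limma adjusted p = 4.92e-05) between resistant lines. RPL34 was lower by -0.31 (SE 0.057, limma adjusted p = 0.00048) and -0.60 (SE 0.057, limma adjusted p = 7.55e-07), the larger difference being that between resistant lines. RPS24 was higher by 0.49 (SE 0.067) between parental and 0.27 (SE 0.067) between resistant lines. Its 2 probe sets had 0.17 and 0.81 between parental lines and 0.075 and 0.47 between resistant lines, with 1 called in each.

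Several calls between the lines sat near the threshold. RPL36 (log2 0.16 between parental lines) lost its call without any 1 of 9 arrays (limma adjusted p 0.0555 to 0.131), every array except KMS-34/Cfz replicates 1 and 3 and KMS-34 replicate 3. RPL39 (-0.17), whose protein lines the exit tunnel, lost it without KMS-11 replicate 1 (limma adjusted p = 0.0786) or KMS-34 replicate 3 (0.0637), RPS16 (0.16) without KMS-11 replicate 1 (0.0613), KMS-11 replicate 3 (0.0772) or KMS-34 replicate 3 (0.0534), and RPL35A (0.21) without KMS-34 replicate 2 (0.065). Between resistant lines the calls made there only were of RPL12, RPL18, RPL22, RPL37, RPS14 and RPS29, and 5 of these were lost with single arrays left out. The call of RPL12 was lost at limma adjusted p of 0.056 to 0.155 without any 1 of 9 arrays, every array except KMS-34/Cfz replicate 3 and KMS-34 replicates 2 and 3. That of RPL22 was lost without any KMS-11/Cfz array or KMS-34/Cfz replicate 1 or 2 (0.0601 to 0.101), that of RPL37 without these or KMS-11 replicate 2 (0.0534 to 0.11), and that of RPS29 without replicate 2 or 3 of KMS-11/Cfz or of KMS-34/Cfz (0.0517 to 0.101). RPL18 lost its call without KMS-11/Cfz replicate 3 (0.0655), while RPS14 (log2 -0.28, limma adjusted p = 0.00463) kept its own with every single array left out. With RefSeq probe sets alone, RPL22 had 0.008 between resistant lines, with the sign turned (limma adjusted p = 0.932), and RPS29 (0.042, 0.622), RPL18 (-0.10, 0.195) and RPL12 (-0.13, 0.0837) were not called.

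**Figure D4:**
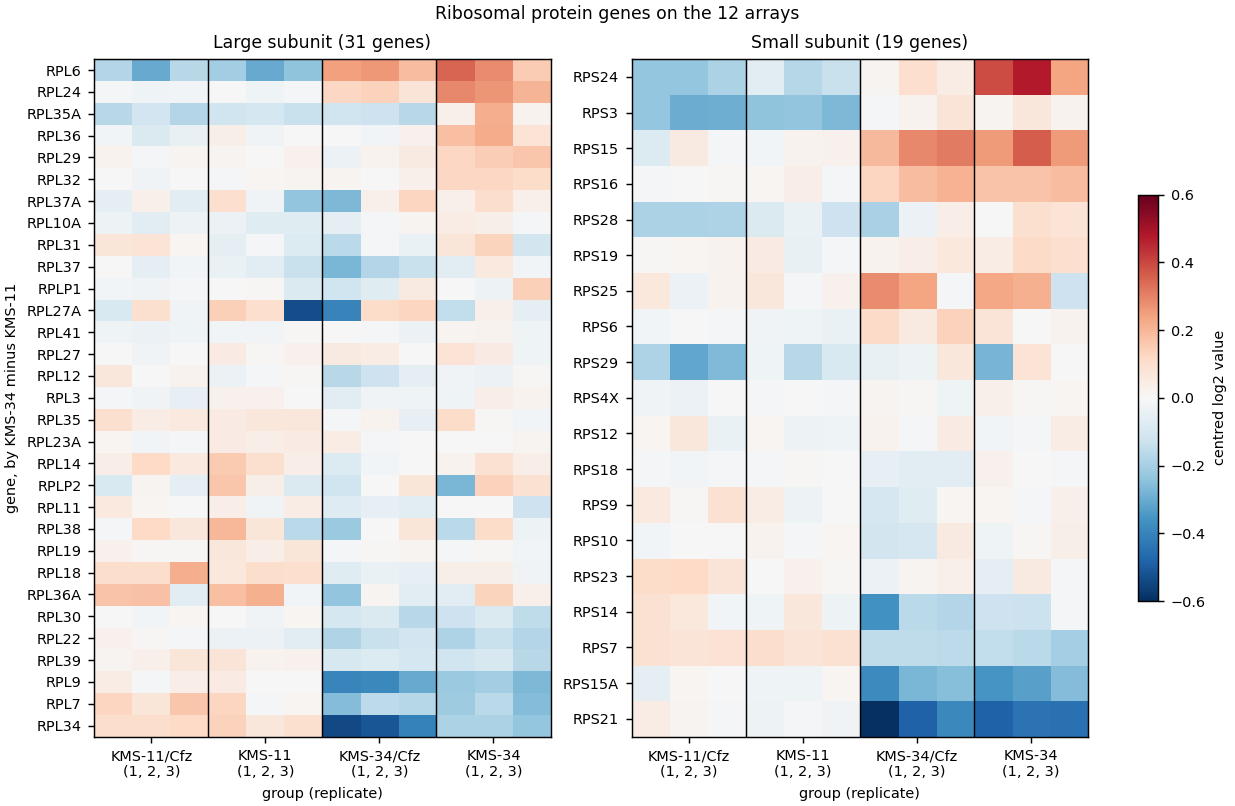
Centred log2 values (colour scale) of the 50 genes (rows, large subunit left and small subunit right, ordered by KMS-34 minus KMS-11) on the 12 arrays (columns, replicates 1 to 3 of each group). Genes at the top and bottom of each panel differ between the KMS-11 and the KMS-34 arrays, and RPL27A stands out on single arrays, at -0.40 on KMS-34/Cfz replicate 1 and -0.53 on KMS-11 replicate 3.

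Probe sets of the same gene often disagreed, and the gene values above average over them. Of the 50 members 32 have more than 1 probe set, with at most 5. A RefSeq mRNA accession is given for 34 probe sets of 34 genes, and the other 74 probe sets are annotated by other records. Between parental lines 6 of 34 RefSeq probe sets were called (4 higher and 2 lower) and 16 of the other 74 (9 higher and 7 lower), beside 34.8% of all probe sets (17.7% higher and 17.1% lower). In KMS-34/Cfz against KMS-34 cells 1 RefSeq probe set fell (that of RPL34) and 4 of the others fell, beside 7.05% of all probe sets (3.87% rose and 3.18% fell), and 0 rose. In KMS-11/Cfz against KMS-11 cells 0 of 108 were called, beside 1.75%.

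RPS15A had the widest disagreement. A probe set with no RefSeq accession had -1.06, -1.09 and -0.91 in KMS-34 cells and -0.033, 0.0052 and 0.038 in KMS-11 cells, a log2 difference of -1.03 (SE 0.087, limma adjusted p = 2.5e-07). Its RefSeq probe set differed by 0.095 (limma adjusted p = 0.323) and the remaining one by 0.028 (0.838), so that the lower value of RPS15A in the KMS-34 line rested on 1 of 3 probe sets. RPS21 was similar, with -0.99, -0.87 and -0.87 in KMS-34 cells and -0.077, -0.019 and -0.044 in KMS-11 cells on a probe set with no RefSeq accession (log2 -0.86, limma adjusted p = 2.49e-06) but a log2 difference of -0.014 (limma adjusted p = 0.909) on its RefSeq probe set. The lower RPL7 likewise came from 1 probe set (log2 -0.55, limma adjusted p = 0.00299), while its other probe sets had -0.086 and -0.13 and were not called. For RPS16, called higher, the 4 probe sets lay between 0.047 and 0.36 between parental lines, with 1 called. Between resistant lines they lay between 0.10 and 0.28, with 2 called.

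RPL31 had probe sets called in opposite directions. On 1 of them it had -0.19, -0.12 and -0.17 in KMS-34 cells and 0.13, 0.30 and 0.13 in KMS-11 cells, a log2 difference of -0.35 (SE 0.082, limma adjusted p = 0.00337). On the RefSeq probe set it had 0.30, 0.31 and 0.21 in KMS-34 cells and -0.032, -0.063 and -0.036 in KMS-11 cells, a log2 difference of 0.32 (SE 0.067, limma adjusted p = 0.00155). The lines did not overlap on either. The same opposition held between resistant lines (-0.75 and 0.26, both called), and averaged over its 3 probe sets RPL31 was not called in either comparison.

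Falls in KMS-34/Cfz also depended on the probe set. For RPL35A, 1 of 5 probe sets had -0.66, -0.49 and -0.54 in KMS-34/Cfz cells, against 0.21, 0.43 and 0.19 in KMS-34 cells, a log2 difference of -0.84 (SE 0.089, limma adjusted p = 6.56e-05), while its other 4 probe sets lay between -0.12 and -0.0088 and were not called. For RPS24, 1 probe set differed by -0.51 (SE 0.10, limma adjusted p = 0.00721) and the other by -0.12 (0.382). Single probe sets of RPL37 (log2 -0.33, limma adjusted p = 0.0335) and RPL37A (-0.37, 0.0336) passed too, although the genes did not. RPL34, with its 1 RefSeq probe set, was the only one of the 3 called genes with no other probe set to compare. Ribosomal protein genes have many processed pseudogenes, so probe sets can read more than their named gene, and what the disagreeing probe sets bind was not tested.

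**Figure D5:**
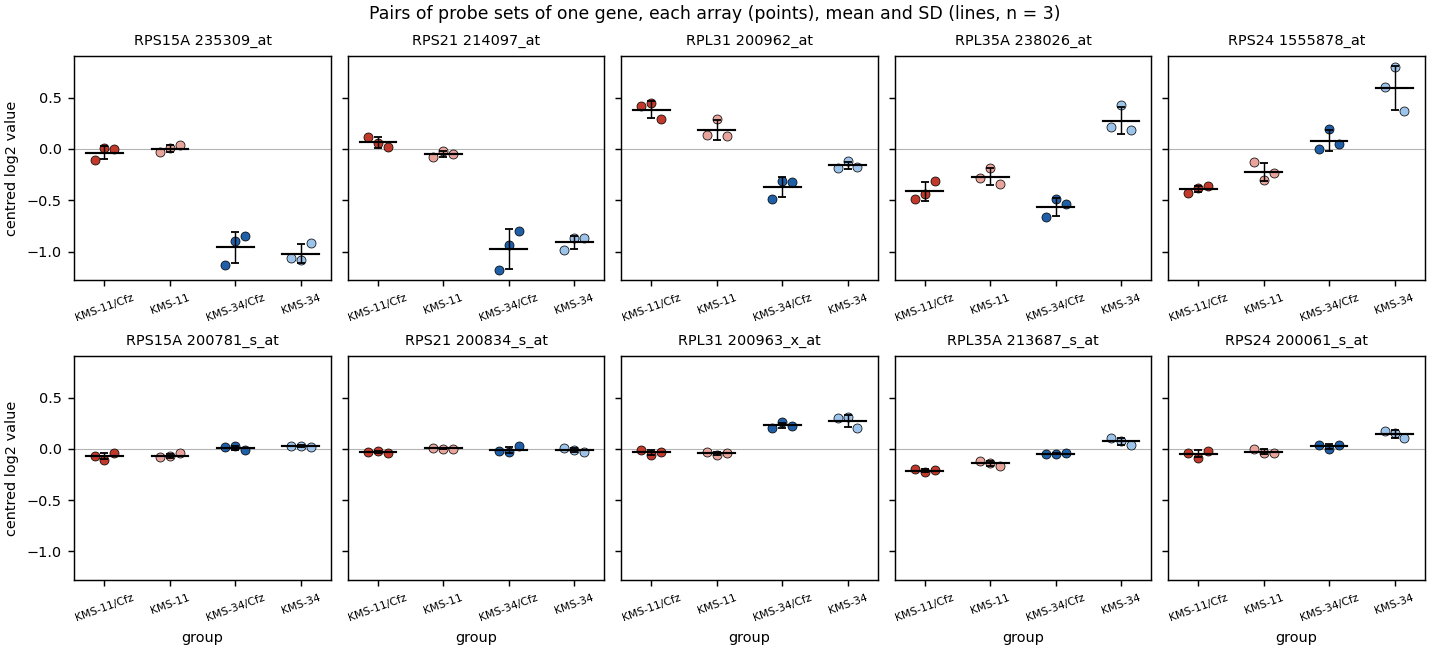
Centred log2 values (vertical axis) of pairs of probe sets (top and bottom) of RPS15A, RPS21, RPL31, RPL35A and RPS24 in each group (horizontal axis), with each array as a point and the mean and SD of 3 arrays as lines. The upper probe sets differ by up to 1.03 on the log2 scale between KMS-34 and KMS-11 cells, and the lower ones by 0.095 for RPS15A, -0.014 for RPS21, 0.21 for RPL35A and 0.17 for RPS24, while the pair of RPL31 differs in opposite directions.

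Some members had values set by single arrays, and the same arrays recurred. RPL27A had -0.40, 0.11 and 0.13 in KMS-34/Cfz cells, against -0.15, 0.029 and -0.060 in KMS-34 cells, and -0.090, 0.096 and -0.019 in KMS-11/Cfz cells, against 0.14, 0.10 and -0.53 in KMS-11 cells. KMS-34/Cfz replicate 1 and KMS-11 replicate 3 were the low ones, and its standard error of 0.167 was the widest of the members in these contrasts. RPLP2, of the acidic stalk, and RPL38 were low on KMS-34 replicate 1 as well (-0.27 and -0.16). On KMS-34/Cfz replicate 1 and KMS-11 replicate 3, RPL38 had -0.22 and -0.16, RPL37A -0.27 and -0.24, and RPLP2 -0.12 and -0.086.

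The chromosomal neighbourhood was compared for the line differences, since myeloma lines differ in copy number, which these arrays do not measure. For each member up to 20 nearest analysed genes, 10 on each side in GRCh38.p14, were taken. RPL6 differed by 0.51 between parental lines and its neighbours by a median of 0.59, with 17 of 20 called higher and 1 lower. RPL34 had -0.31 and its neighbours -0.45, with 12 of 20 called lower and 3 higher, and RPL9, on the same chromosome, had -0.25 and -0.15, with 9 of 20 called lower and 3 higher. The neighbours of RPS21 had a median of -0.032 beside its own -0.44, with 3 of 20 called lower and 2 higher. Those of RPS7 had -0.018 beside -0.26, with 7 lower and 1 higher, and those of RPS15A 0.0050 beside -0.30, with 4 and 4. Neighbours of some members that were not called differed too. Those of RPL35 had -0.30 beside -0.028 (11 lower, 1 higher), those of RPS29 -0.19 beside 0.028 (10 and 0) and those of RPLP2 0.22 beside -0.053 (2 and 9). Across the 50 members the own and neighbouring differences correlated with r = 0.622, as a description, since members that lie close together share neighbours. The part of copy number in the line differences was not tested.

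Of 10 ribosomal protein genes and paralogs that the symbol rule leaves out, 9 were analysed. FAU, which encodes the small subunit protein eS30 fused to a ubiquitin-like protein, had 0.18, 0.18 and 0.13 in KMS-34 cells and -0.33, -0.25 and -0.25 in KMS-11 cells, with no overlap and a log2 difference of 0.44 (SE 0.054, limma adjusted p = 1.04e-05). The paralogs RPS27L (0.69), RPL22L1 (0.53) and RPL26L1 (0.53) were higher and RPL10L (-0.89) and RPL36AL (-0.22) lower in KMS-34 than in KMS-11 cells. With FAU this made 4 higher and 2 lower of 9 (66.7%, beside 42.1% of all genes). RPL36AL lost its call without KMS-11 replicate 1 (limma adjusted p = 0.0633), KMS-11 replicate 3 (0.0584) or KMS-34 replicate 3 (0.0873). RPL3L, RPL7L1 and RPL39L were not called. With resistance 1 of the 9 changed, in KMS-34/Cfz (11.1%, beside 10.1% of all genes). RPL22L1, the paralog of RPL22, had -0.15, 0.0040 and 0.090 in KMS-34/Cfz cells, against 0.53, 0.55 and 0.26 in KMS-34 cells, a log2 difference of -0.46 (SE 0.086, limma adjusted p = 0.00368). RPL22 itself differed by 0.021 and was not called.

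Mitochondrial ribosomal proteins build a separate ribosome inside the organelle. In KMS-34/Cfz against KMS-34 cells 1 of 75 rose (MRPL28, log2 0.37) and 6 fell, among them MRPS21 (-0.77), MRPL1 (-0.65) and MRPL24 (-0.40). Together this was 9.33%, beside 10.1% of all genes, and the median of the 75 was -0.036. MRPL1 had -1.25, -1.13 and -1.12 in KMS-34/Cfz cells, against -0.51, -0.49 and -0.56 in KMS-34 cells, without overlap (limma adjusted p = 4.28e-05). In KMS-11/Cfz against KMS-11 cells 0 of 75 were called, beside 3.57% of all genes. Between parental lines 36 were higher and 17 lower in KMS-34 cells (70.7%, beside 42.1% of all genes), and the members had 8 and 7 of 50. The difference between the lists was not tested.

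Other genes that make or use ribosomes were counted from lists. Among 15 elongation factors and other mRNAs with the oligopyrimidine start, 0 changed in KMS-34/Cfz and 0 in KMS-11/Cfz cells, and among 14 genes of RNA polymerase I transcription likewise 0 and 0. Of 27 translation initiation factors 1 rose in KMS-34/Cfz, EIF2S2, the β subunit of the factor that brings the initiator tRNA (log2 0.25, limma adjusted p = 0.0122; 0.0591 without KMS-34/Cfz replicate 2). Of 43 analysed ribosome biogenesis factors 5 rose in KMS-34/Cfz, among them EIF6, which keeps young large subunits from joining (0.36), and NIP7 (0.36), and 6 fell, among them BCCIP (-0.44) and GRWD1 (-0.33), together 25.6% beside 10.1% of all genes. Of these 11 calls 7 were lost with at least 1 single array left out, that of UTP4 with any 1 of 11, that of PES1 with any 1 of 6 and that of DDX21 with any 1 of 4. NIP7 lost its call without KMS-34/Cfz replicate 2 (limma adjusted p = 0.0743) or KMS-34 replicate 3 (0.0776), and GRWD1 without any 1 of 8 arrays (0.0581 to 0.177), all 3 of KMS-11/Cfz, replicates 1 and 2 of KMS-34/Cfz, replicate 3 of KMS-11 and replicates 2 and 3 of KMS-34. In KMS-11/Cfz 1 of the 43 fell, HEATR3, which helps import the protein of RPL5 (-0.37, limma adjusted p = 0.0151), and 0 rose. That call was lost without KMS-11/Cfz replicate 1 or 3 or any KMS-11 array (0.0534 to 0.0781). Of 14 regulators of these mRNAs AKT1 rose (0.48, limma adjusted p = 0.00337) and MYC, which drives ribosomal gene transcription, fell (-0.33, limma adjusted p = 0.00739) in KMS-34/Cfz cells (14.3% of the list), and 0 changed in KMS-11/Cfz cells. Of 4 snoRNA host transcripts 0 changed in either line.

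Other measures moved beside these results. In the proliferation list 3 of 20 genes rose and 1 fell in KMS-34/Cfz cells (20%, beside 10.1% of all genes). In KMS-11/Cfz cells 0 of the 20 changed, beside 3.57% of all genes. Of 10 plasma cell markers 1 rose and 4 fell in KMS-34/Cfz (50%) and 2 fell in KMS-11/Cfz cells (20%). Of 8 T and NK cell, 6 monocyte and 8 stromal cell markers 1 was called in KMS-34/Cfz (the monocyte marker CD14, which fell) and 0 in KMS-11/Cfz cells. Their part in the results was not tested.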

How the data were processed

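Affymetrix U133 Plus 2.0 arrays were read from the series' value table. The authors normalized the arrays with RMA, and the deposited log2 values are centred per probe set, as the values themselves show; who centred them and the RMA version are not given in the sources used here. Probe sets were named by GEO's platform annotation, and a gene was the mean of all probe sets naming it alone. All 12 arrays entered 1 limma fit (limma 3.58.1, R 4.3.3) with a mean per group. Contrasts were resistant minus parental per line, their mean and difference, and KMS-34 minus KMS-11 among parental and among resistant cells. P-values are two-sided and adjusted (Benjamini-Hochberg) over all 19775 genes or all 54613 probe sets, with a threshold of 0.05. Intervals use the fit's moderated errors. No filter on dim probe sets was possible, because centred values hold no level. The number of arrays limits precision. The fit was tested on simulated data with independent noise and planted differences larger than those called in members with resistance. That test does not show how often differences of their size are found. Genes named are members past the threshold (up to 6 rises and 6 falls per contrast), ends of the range, members whose probe sets disagree most, and up to 4 called genes per other list and resistance contrast. The members and lists were chosen with earlier results of these data known. Transcript starts are RefSeq's, GRCh38.p14; of several starts the one with the longest tract was shown. Alternatives changed the scaling, weights, probe sets, threshold, block and arrays.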

Additional observations from a re-analysis of the deposited data

Results flagged for a closer look

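Response to resistance differed between the lines for 1 ribosomal protein gene and 11 genes of the other lists. The test was limma's interaction term (KMS-34 contrast minus KMS-11 contrast, log2). It called 2% of the members, beside 6.44% of all genes. The shares called were 6.67% of mitochondrial ribosomal protein genes, 6.98% of biogenesis factors, 7.14% of mRNA regulators and 20% of the plasma cell list. RPL34 had -0.29 (limma adjusted p = 0.0472), a call that 10 of 12 single omissions ended. The mitochondrial ribosomal protein genes MRPS21 (-0.83, limma adjusted p = 0.00266), MRPL1 (-0.81, 0.000243), MRPL24 (-0.55, 0.00301) and MRPL42 (-0.41, 0.0248) were lower and MRPL28 (0.38, 0.0355) was higher in this difference. Among biogenesis factors BCCIP had -0.43 (limma adjusted p = 0.0197), GAR1 -0.36 (0.0421) and HEATR3 0.42 (0.0325), and AKT1 had 0.50 (0.0297). The plasma cell markers MZB1 (0.54, 0.00179) and JCHAIN (0.77, 0.027) had positive differences, for which single omissions were not run. Single omissions also ended the calls of MRPL28 (every array except KMS-34/Cfz replicate 1 and KMS-34 replicate 2, limma adjusted p 0.0554 to 0.0924), MRPL42 (all of KMS-11/Cfz, KMS-11 replicates 2 and 3 and KMS-34 replicate 1, 0.0502 to 0.0675) and AKT1 (every array except KMS-34/Cfz replicate 1, KMS-11 replicate 3 and KMS-34 replicate 2, 0.0552 to 0.0804). They did so for GAR1 (every array except KMS-34/Cfz replicates 1 and 3 and KMS-34 replicate 3, 0.0511 to 0.114), HEATR3 (every array except KMS-34/Cfz replicate 1 and KMS-34 replicates 1 and 2, 0.0555 to 0.0904) and BCCIP (KMS-11/Cfz replicates 1 and 2 and KMS-11 replicate 3, 0.0535 to 0.0617). No cause was tested.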

How the results depend on the processing

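For the alternatives, the share of all genes called was not counted. Whether a changed count below is particular to the members therefore cannot be told. Ribosomal protein genes in KMS-11/Cfz stayed at 0 called under every alternative, and cyclic loess called 1 probe set. In KMS-34/Cfz the count of genes became 7 with array weights (whose estimation did not converge fully), 5 without _x_at and _s_at probe sets and 0 with the line fitted alone, and that of probe sets 8, 2 (threshold 0.01) and 1 (line alone); the median of large subunit genes became -0.02 with weights. For the mean of both lines, genes became 0 with 3 arrays out (KMS-11 replicate 3 and replicate 1 of both KMS-34 groups, chosen after seeing the data) or threshold 0.01, 5 with weights, 2 with cyclic loess or the largest-variance probe set and 4 without _x_at and _s_at; probe sets became 6 with weights, 4 with cyclic loess and 1 at 0.01. For the difference between lines, genes became 0 with 3 arrays out, medians aligned, RefSeq probe sets (added after seeing the data), quantile scaling, the replicate block or threshold 0.01, and 2 with weights or the largest-variance probe set; probe sets became 1 with medians aligned or threshold 0.01 and 5 with weights; its large subunit median became -0.018 with weights or 3 arrays out and its small subunit median -0.041 with the largest-variance probe set. Between parental lines cyclic loess gave a small subunit median of 0.002 and the largest-variance probe set a large subunit median of -0.062. Between resistant lines 26 genes and 51 probe sets were called with weights and 11 genes at 0.01; the large subunit median became -0.001 with 3 arrays out, -0.098 with the largest-variance probe set, -0.012 with RefSeq probe sets and -0.079 without _x_at and _s_at, and the small subunit median 0.042 with RefSeq probe sets. RefSeq probe sets turned the sign of RPS15A (0.095 between parental and 0.082 between resistant lines), RPL22 (0.008) and RPS21 (0.023, both between resistant lines).

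With 1 array left out, large subunit medians ranged from -0.083 to -0.037 in KMS-34/Cfz, -0.05 to -0.017 for the mean of both lines, -0.103 to -0.031 for their difference and -0.096 to -0.001 between resistant lines, and the small subunit median in KMS-34/Cfz from -0.044 to 0.008. Counts of genes ranged from 0 to 2 for the mean and 0 to 1 for the difference, and of probe sets from 2 to 5 in KMS-34/Cfz, 2 to 4 for the mean and 1 to 2 for the difference.

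Same-numbered arrays of resistant and parental cells deviated together with r of -0.009, 0.129 and 0.039 in the KMS-11 line and 0.561, 0.374 and 0.046 in the KMS-34 line. For differently numbered arrays r ranged from -0.112 to 0.077 in the KMS-11 line and from -0.537 to 0.438 in the KMS-34 line. Whether the numbers pair samples in the KMS-34 line was not settled. The main fit did not pair them, and a replicate block was run as an alternative. With the replicate block RPL34's difference between the lines had a limma adjusted p of 0.0647, RPL36 between parental lines 0.0529 and RPL12 between resistant lines 0.0564, and the block moved no other count of members called by over 1.5 times. The cause of these changes was not tested.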
